A study of Mus musculus with 36 samples.

Results

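The collagen gene family was followed through the mRNA of mouse embryonic stem cells (ESC) and of cells differentiated from them with retinoic acid and labelled neural precursor cells (NPC). Members were all symbols of the count table written as Col, a number, the letter a and a number, which gave 44 of 51734 genes. They comprised 11 fibrillar collagens, 8 basement membrane collagens (type IV and the multiplexins XV and XVIII), 6 type VI chains, 3 short-chain network collagens, 9 FACIT collagens (fibril-associated collagens with interrupted helices), 4 transmembrane collagens and 3 others. Of the 44, 42 had enough counts to be tested, and Col9a1 (2 to 18 counts summed over a group) and Col28a1 (8 to 21) did not. All libraries came from E14, a mouse ESC line, and formed 6 groups of 3 replicates. The genotypes were wild type (WT), dCD, in which the histone H3K4 methyltransferases MLL3 and MLL4 lack catalytic activity, and MLL2dTAG, in which the related enzyme MLL2 carries a degron tag that the compound dTAG-13 directs to degradation. Each genotype was measured as ESC, grown with LIF and KnockOut serum replacement, and as NPC, harvested on day 4. According to the labels every library used here, WT and dCD included, was treated with dTAG-13, and every NPC library with retinoic acid (RA), with dTAG-13 added at 2 µM from day 1 of differentiation and no duration for ESC. Both edits act on the protein, so mRNA levels do not check them. The labels name no second line per genotype, so a difference between genotypes and a difference between lines cannot be told apart, and nothing says that the replicates were separate cultures, so p-values measure the spread between these libraries, which may be technical. Total counts were 19.4 to 46 M per library.

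Collagens are secreted or membrane-bound proteins whose alpha chains wind into a triple helix. Fibrillar collagens (I, II, III, V, XI, XXIV and XXVII) form or organise the fibrils of connective tissue, type IV chains form the sheet-like network of basement membranes together with laminins and nidogens, and FACIT collagens bind to the surface of fibrils. Chains of 1 type are often made in a fixed proportion, as in type I, which is built from the Col1a1 and Col1a2 chains, and in the main form of type IV, built from the Col4a1 and Col4a2 chains. In the early embryo, basement membrane collagen is a main product of the extraembryonic endoderm, and fibrillar collagen of mesenchymal cells.

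The promoters of 5 genes are shown here because their members carried the divergences described below: in MLL2dTAG NPC the head-to-head type IV genes Col4a1 and Col4a2 rose and the head-to-head pair Col4a5 and Col4a6 fell, and of the fibrillar genes Col3a1 rose and Col1a2 fell. Each sequence is a RefSeq window of the GRCm38.p6 build from 250 bases before to 50 bases after the annotated start, written 5′ to 3′ on the strand of the gene. Capitals mark CCAAT, the GC box GGGCGG and the TATA element TATAAA on either strand, and no matches overlapped in these windows. Col3a1 (chr1:45311288-45311587, plus strand), Col1a2 (chr6:4505368-4505667, plus strand), Col4a2 (chr8:11312555-11312854, plus strand), Col4a5 (chrX:141475169-141475468, plus strand) and Col4a6 (chrX:141474027-141474326, minus strand) read:
Col3a1: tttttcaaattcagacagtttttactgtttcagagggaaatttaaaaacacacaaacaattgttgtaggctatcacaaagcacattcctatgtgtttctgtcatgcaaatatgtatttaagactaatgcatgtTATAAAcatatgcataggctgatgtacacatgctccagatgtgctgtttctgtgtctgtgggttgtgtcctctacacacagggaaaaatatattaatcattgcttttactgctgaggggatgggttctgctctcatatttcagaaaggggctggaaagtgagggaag
Col1a2: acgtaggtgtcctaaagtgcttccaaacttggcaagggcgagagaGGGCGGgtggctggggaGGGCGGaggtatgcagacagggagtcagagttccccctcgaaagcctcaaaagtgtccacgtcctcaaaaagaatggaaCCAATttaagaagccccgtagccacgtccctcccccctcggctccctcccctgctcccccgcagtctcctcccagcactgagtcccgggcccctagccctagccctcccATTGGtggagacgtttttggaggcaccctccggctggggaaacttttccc
Col4a2: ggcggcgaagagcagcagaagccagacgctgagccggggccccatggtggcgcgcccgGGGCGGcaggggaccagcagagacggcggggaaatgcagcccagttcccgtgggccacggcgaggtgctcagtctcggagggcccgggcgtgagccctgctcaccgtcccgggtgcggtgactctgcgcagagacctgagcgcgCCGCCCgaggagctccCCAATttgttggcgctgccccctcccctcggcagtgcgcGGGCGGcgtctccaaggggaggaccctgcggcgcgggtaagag
Col4a5: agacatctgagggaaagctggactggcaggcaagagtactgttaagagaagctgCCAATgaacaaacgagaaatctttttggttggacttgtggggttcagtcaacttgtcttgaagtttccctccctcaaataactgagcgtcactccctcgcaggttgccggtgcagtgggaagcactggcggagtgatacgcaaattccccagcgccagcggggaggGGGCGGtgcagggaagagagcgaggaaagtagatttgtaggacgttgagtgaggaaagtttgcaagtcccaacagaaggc
Col4a6: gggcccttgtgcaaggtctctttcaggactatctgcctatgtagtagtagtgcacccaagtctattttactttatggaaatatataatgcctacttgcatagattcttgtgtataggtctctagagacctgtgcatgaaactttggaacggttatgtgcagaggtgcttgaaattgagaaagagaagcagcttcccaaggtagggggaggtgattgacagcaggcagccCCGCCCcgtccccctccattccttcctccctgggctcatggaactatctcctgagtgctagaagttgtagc

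The Col3a1 window held a TATAAA match and no CpG, whereas the Col1a2 window held 13 CpG, 2 GC boxes and 2 CCAAT matches. The Col4a2 window held 33 CpG and also contained the start of Col4a1, which lies 21 bases away on the opposite strand. The starts of Col4a5 and Col4a6 are 1343 bases apart, and their windows held 11 and 3 CpG. Promoter windows were found for 35 of the 44 members (38 windows). A GC box was present in 60.5% of the 38 collagen windows and in 35.7% of all 32851 windows of that length, CCAAT in 34.2% and 37.4%, and TATAAA in 13.2% and 13.6%. Collagen windows were also richer in GC, with a median of 59.8% against 52.7%, and in CpG, with a median of 11.5 against 7. The GC box shares were not adjusted for base composition. These matches describe letters in a window and are not measured binding sites.

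Collagen mRNA was a larger share of the transcriptome in NPC than in ESC, in all 3 genotypes. The summed level of the 44 genes, as CPM (read counts scaled to the library total with TMM factors), was 1608, 1907 and 1682 in the 3 ESC WT libraries, 2156, 2149 and 2025 in ESC dCD and 2342, 2293 and 2407 in ESC MLL2dTAG. In NPC it was 4102, 4253 and 4044 in WT, 4811, 4559 and 4538 in dCD and 5667, 5585 and 5649 in MLL2dTAG. No NPC library overlapped an ESC library, and at each stage both edited lines lay above WT in every library. The second ESC WT library had the highest collagen sum of its group and stood apart over all genes, with a chi-square per degree of freedom of 9.52 and 7.62 against its replicates, where all other replicate pairs gave 2.15 to 4.15. Without it, 24 members were called in ESC dCD and 25 in ESC MLL2dTAG, against 24 and 28 with it.

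**Figure D1:**
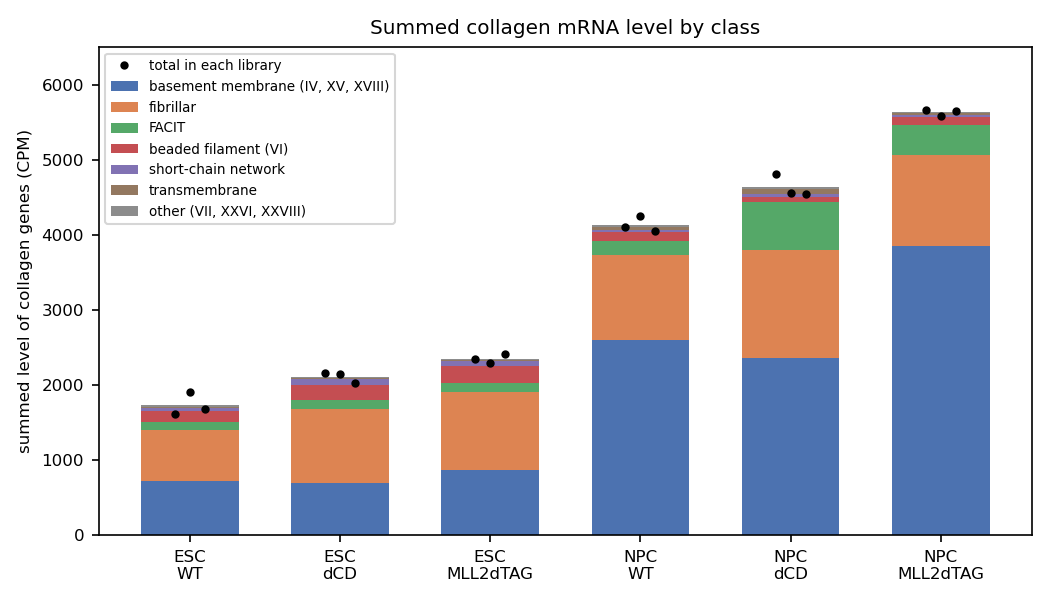
Summed level of collagen genes in CPM (vertical axis, from 0) for the 6 groups, as bars stacked by class from the mean of 3 libraries, with points for the total of each library. Basement membrane collagens form the largest class in NPC, and FACIT collagens are widest in NPC dCD.

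The make-up of this sum differed between stages and lines. Basement membrane collagens were 41.6% of collagen CPM in ESC WT. In NPC they were 62.7% in WT, 50.9% in dCD and 68.4% in MLL2dTAG. Fibrillar collagens were 38.8% in ESC WT, and in NPC 27.5% in WT, 30.8% in dCD and 21.5% in MLL2dTAG. FACIT collagens were 4.44% in NPC WT, 13.8% in dCD, the highest of the 3, and 6.96% in MLL2dTAG.

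Levels of different genes were compared as CPM per kb of the gene's longest protein-coding transcript. In ESC WT the highest mean levels on this scale were those of Col18a1, the precursor of endostatin (72.3), Col1a2 (42.9), Col1a1 (32.8) and Col4a1 (29.7). In NPC WT the order was Col4a1 (157), Col18a1 (149), Col4a2 (80.1), Col3a1 (53.1) and Col11a1 (31.8). In NPC dCD Col12a1 entered this group (43.4), and in NPC MLL2dTAG Col4a1 reached 338 and Col3a1 129 CPM per kb. The lowest tested member was Col19a1, a FACIT collagen, with 0 to 36 counts summed over a group.

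Differentiation of WT cells was tested first, since it sets the background for the genotype comparisons. Of 42 members, 39 were called at adjusted p under 0.05, which is 92.9%, against 79.5% of all genes tested. Of these, 25 were higher in NPC (against 39.1%) and 14 lower (against 40.4%). At 2-fold or more 26 were called, where 43.7% of all genes passed that size. Libraries of the stages did not overlap for 39 members, and for 16342 of the 20511 genes tested. The median log2 change was 0.61 over members and −0.04 over all genes. Members were therefore called somewhat more often than genes at large, and mainly upward.

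Type IV collagen was higher in NPC throughout. Col4a1, a chain of the common network, was at 184, 210.5 and 195 CPM in the 3 ESC WT libraries and 1043, 1085 and 993 CPM in NPC WT (log2 change 2.40, SE 0.04; edgeR quasi-likelihood, Benjamini-Hochberg adjusted p 2.7e-34). Its partner Col4a2 was at 93.4, 108 and 92.6 CPM in ESC WT and 508, 541 and 501 in NPC WT, an equal log2 change of 2.40. No library of either gene overlapped between stages. Col4a5, a chain of the X-linked network, was at 14.7, 17.8 and 16.8 CPM in ESC WT and 196, 192 and 185 CPM in NPC WT (11.5-fold higher). The rarer chains Col4a3, Col4a4 and Col4a6 rose as well, from 6, 17 and 44 counts over the ESC WT group to 97, 282 and 323 in NPC WT. All 6 type IV genes were thus called higher, Col18a1 rose by 1.04 on the log2 scale, and Col15a1 (3.88 and 3.34 CPM) was not called. With GC and length offsets (corrections for a gene's GC content and length, fitted per library) the log2 change of Col4a2 was 1.80, while that of Col4a3 was 2.65 to 4.36 in fits with a replicate block or without 1 of the ESC WT replicates 2 and 3.

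Fibrillar genes split at this step, with 7 of 11 higher and 4 lower in NPC WT (against 39.1% and 40.4% of all genes). Col3a1, the type III chain, was at 50.8, 61.2 and 52.6 CPM in ESC WT and 305, 296 and 285 CPM in NPC WT (log2 change 2.42, SE 0.05). Col11a1, a chain of type XI, was at 9.10, 12.6 and 10.8 CPM in ESC WT and 244, 245 and 242 in NPC WT (22.1-fold higher; edgeR quasi-likelihood, Benjamini-Hochberg adjusted p 3.4e-36). Col2a1, the type II chain of cartilage and notochord, was at 12.1, 12.4 and 11.9 CPM in ESC WT and 81.9, 90.2 and 85.6 in NPC WT. These 3 genes did not overlap between stages in any library. Col11a2, another chain of type XI, was at 1.17, 1.39 and 1.33 CPM in ESC WT and 4.37, 6.44 and 6.59 in NPC WT (2.15 on the log2 scale, and 1.43 with GC and length offsets). Col24a1, a fibrillar collagen of developing bone and cornea, was at 0.319, 1.29 and 0.612 CPM in ESC WT and 6.74, 6.31 and 6.93 in NPC WT (3.06, and 3.74 without ESC WT replicate 2). Both were higher in every NPC library, as was Col27a1 (2.57, and 1.98 with those offsets). The type I chains Col1a1 (−0.32 on the log2 scale) and Col1a2 (−0.59) instead fell. Col5a3 was at 19.4, 20.1 and 18.6 CPM in ESC WT and 1.20, 1.49 and 1.73 CPM in NPC WT (−3.70 on the log2 scale, and −4.34 with those offsets). Col5a2 fell as well (−0.45). Col5a1 was called higher (0.34), but with GC and length offsets it was called lower (−0.22).

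In type VI, 3 genes were higher and 3 lower in NPC WT (against 39.1% and 40.4% of all genes), the latter all by 2-fold or more. These were the third main chain, Col6a3, and the alternative chains Col6a4 (log2 change −5.13) and Col6a5. Col6a3 was at 39.2, 54.5 and 41.2 CPM in ESC WT and 1.65, 2.93 and 3.02 CPM in NPC WT (log2 change −4.14, SE 0.13), while Col6a1 and Col6a2 rose slightly (0.35 and 0.58). The short-chain genes exchanged places: Col8a1 went from 27.7, 34.1 and 28.1 to 4.21, 3.41 and 3.58 CPM and Col8a2 from 2.34, 1.36 and 1.56 to 28.2, 32.0 and 34.6 CPM. Both chains build the type VIII network of vessel walls and the cornea. Col10a1, known from hypertrophic cartilage, fell from 12.4, 13.9 and 13.6 to 0.696, 0.852 and 0.922 CPM. Among FACIT genes Col14a1 rose from 27 counts over the ESC WT group to 1467 in NPC WT (40.1-fold). Col25a1, a transmembrane collagen of neurons, rose 34.1-fold, from 0.513 ± 0.0634 to 17.5 ± 0.770 CPM (SD, n = 3), and Col26a1 rose 6.52-fold. Col17a1, the transmembrane collagen of hemidesmosomes, fell by 2.30 on the log2 scale. With GC and length offsets, Col6a6 (0.29) and Col22a1 (0.13) were no longer called, and Col12a1 moved from 0.86 to 0.26.

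The labelled cell type was checked against markers. Pluripotency markers summed to 4078 to 4508 CPM in ESC WT and 125 to 126 CPM in NPC WT. The 9 neural progenitor markers summed to 438 to 452 CPM in ESC WT and 572 to 596 CPM in NPC WT, with 8 higher in NPC (against 39.1% of all genes). Among them, Pax6 was at 38.9 ± 1.16 CPM and Nes at 91.2 ± 1.08 CPM in NPC WT, but Hes5 was at 0.451 ± 0.123 CPM and Sox1, at 3.10 ± 0.240 CPM, was as low as in ESC WT. NPC WT also held extraembryonic endoderm markers at 676 to 699.9 CPM in sum, against 243 to 290.5 CPM in ESC WT, with Gata6 at 127 ± 3.05 and Gata4 at 62.6 ± 0.663 CPM. The 14 mesenchymal markers summed to 325 to 337 CPM in NPC WT and 154 to 181 CPM in ESC WT. These marker levels moved with the rise of collagen between the stages, and their part in it was not tested. In bulk RNA, fewer cells of a type and less RNA per cell cannot be told apart.

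**Figure D2:**
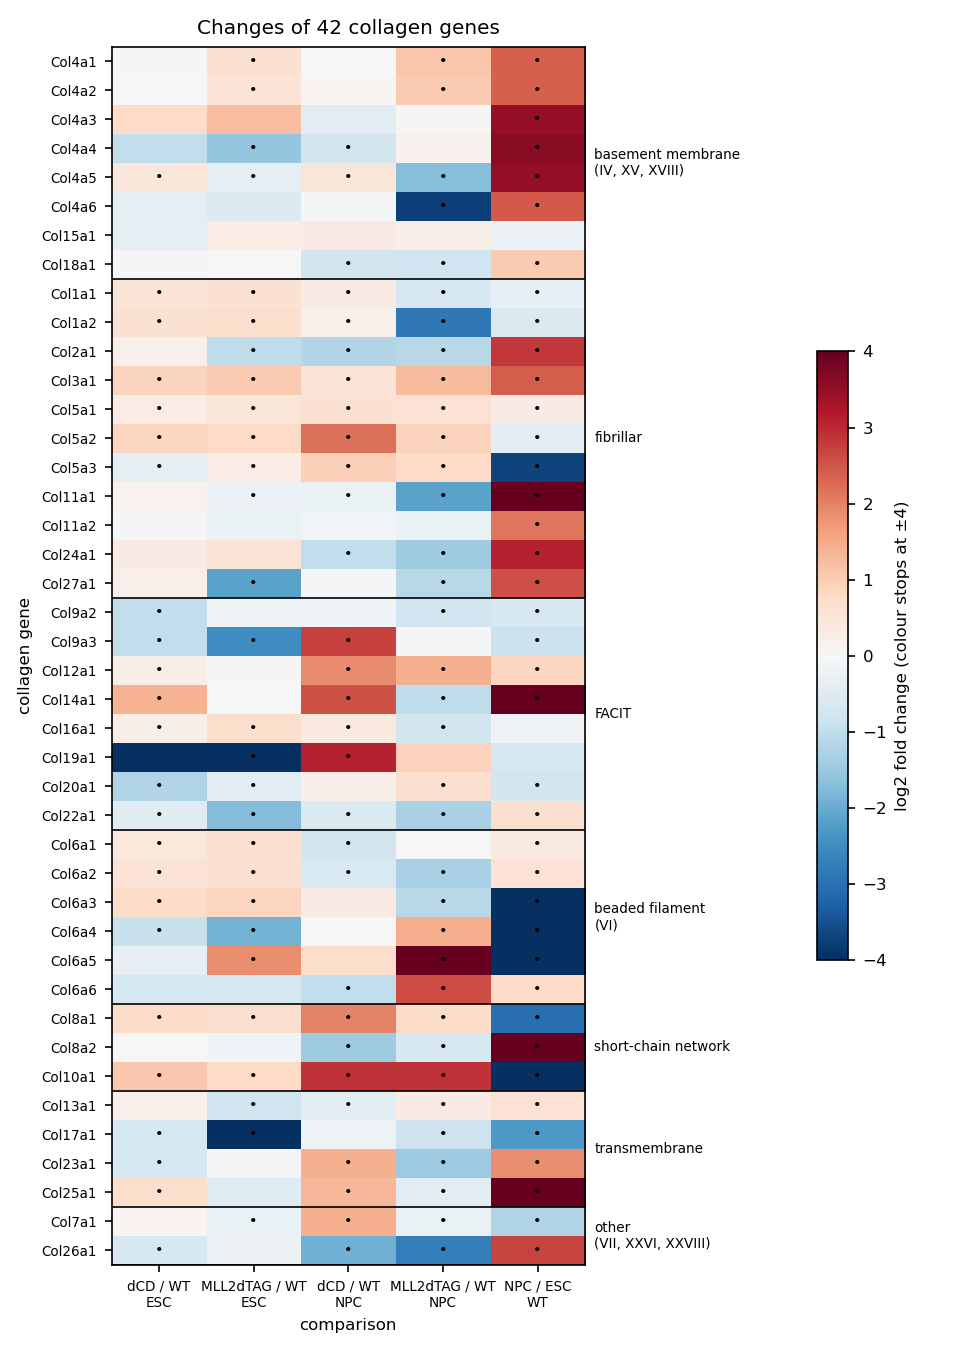
Log2 fold changes of 42 collagen genes (rows, grouped by class) in 5 comparisons (columns), as colours that stop at ±4, with a dot where the gene was called. Values of Col19a1 in ESC rest on 0 counts in the edited lines. The MLL2dTAG against WT column in NPC holds the most dots of the 4 genotype columns, 35.

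Against WT, the share of members called exceeded that of all genes in each of the 4 genotype comparisons, by less in ESC than in NPC. In ESC, 24 of 42 members were called in dCD (57.1%, against 48.3% of all genes), 15 higher and 9 lower (against 25.7% and 22.6%), but 3 of them at 2-fold or more. In ESC MLL2dTAG 28 were called (66.7%, against 56.9%), 15 higher and 13 lower (against 28.7% and 28.2%), 10 of them at 2-fold or more. Both ESC shares called are near those of all genes. Omitting single replicates left 21 to 24 members called in ESC dCD and 24 to 28 in ESC MLL2dTAG. In NPC dCD 29 were called (69%, against 53.5%), 17 higher and 12 lower (against 26.7% and 26.8%), 13 of them at 2-fold or more. In NPC MLL2dTAG 35 were called (83.3%, against 61.7%), 14 higher and 21 lower (against 33.3% and 28.4%), 21 of them at 2-fold or more. There the share of members called higher equalled that of all genes, and the share called lower exceeded it, with TMM factors. The directions over all genes depended on the scaling. Of all genes called there, 54.0% were higher with TMM factors, 44.7% with upper-quartile factors and 45.7% with library totals only. Members were 13 higher and 21 lower with either alternative. For changes of 2-fold or more the shares over all genes were 9.51%, 16.8%, 11.9% and 19.6% in the same order, so the 3 members in ESC dCD are near that background while 13 and 21 of 42 in NPC are above it. Median log2 changes of members were 0.12, −0.05, 0.15 and −0.26, each beside a median between −0.02 and 0.03 over all genes. Both lines were compared with the same WT libraries, so their changes share that error. Libraries of the line and of WT did not overlap for 23, 25, 30 and 34 members in the same order. Over the 20511 genes tested the numbers were 10627, 12246, 12326 and 13929, so a lack of overlap was frequent among all genes too.

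In ESC the interstitial fibrillar collagens were higher in both edited lines, by less than 2-fold in most cases. Col1a2 was at 210.1, 255 and 224 CPM in WT, 362, 357 and 328 in dCD and 373, 366 and 388 in MLL2dTAG, with log2 changes of 0.60 and 0.71. Col3a1 was at 50.8, 61.2 and 52.6 CPM in WT, 103, 103 and 98.4 in dCD and 110.4, 115 and 119 in MLL2dTAG (log2 changes 0.88 and 1.06; edgeR quasi-likelihood, Benjamini-Hochberg adjusted p 8.0e-20 in MLL2dTAG). Neither gene overlapped between WT and an edited line. Col5a2, which joins type I fibrils as part of type V, was at 44.0, 49.1 and 44.3 CPM in WT, 81.4, 92.0 and 78.1 in dCD and 80.1, 79.6 and 78.9 in MLL2dTAG. Col1a1 (log2 changes 0.50 and 0.60) and Col5a1 (0.30 and 0.50) rose in both lines too. Cartilage-type fibrillar genes did not share this: Col2a1 was at 12.1, 12.4 and 11.9 CPM in WT, 15.3, 11.6 and 14.8 in dCD, a difference that was not called (0.20), and 5.42, 6.58 and 5.74 in MLL2dTAG (log2 change −1.03, SE 0.10). The Col2a1 difference in ESC dCD was called at 0.21 to 0.22 with RLE factors, no low-count filter or DESeq2, and at 0.31 without dCD replicate 2. Col27a1 fell in MLL2dTAG, from 6.07, 4.38 and 4.89 to 1.91, 0.559 and 1.07 CPM. Col5a3 moved in opposite directions, −0.38 in dCD and 0.31 in MLL2dTAG. The call of Col11a1 in ESC MLL2dTAG (−0.23) was lost without ESC WT replicate 2 (−0.10) or without MLL2dTAG replicate 1 (−0.20) or 2 (−0.22).

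Mesenchymal markers moved with these genes, 12 of 14 being called higher in dCD and 13 in MLL2dTAG (against 25.7% and 28.7% of all genes). Their summed level was 154 to 181 CPM in ESC WT, 256 to 283 in ESC dCD and 289.6 to 301 in ESC MLL2dTAG, with Prrx1, a transcription factor of mesenchyme, at 17.8 ± 1.19, 44.2 ± 3.52 and 44.1 ± 1.92 CPM. Of the 14 markers, 4 in ESC dCD and 3 in ESC MLL2dTAG had means under 1 CPM, with Tcf21 without a count in WT and MLL2dTAG. Summed fibrillar collagen was 616, 756 and 646 CPM in ESC WT, 1018, 1005 and 923 in ESC dCD and 1042, 1019 and 1080.1 in ESC MLL2dTAG, and the second library was the highest of the WT group in both sums. The part of cells of that kind in the fibrillar difference was not tested.

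**Figure D3:**
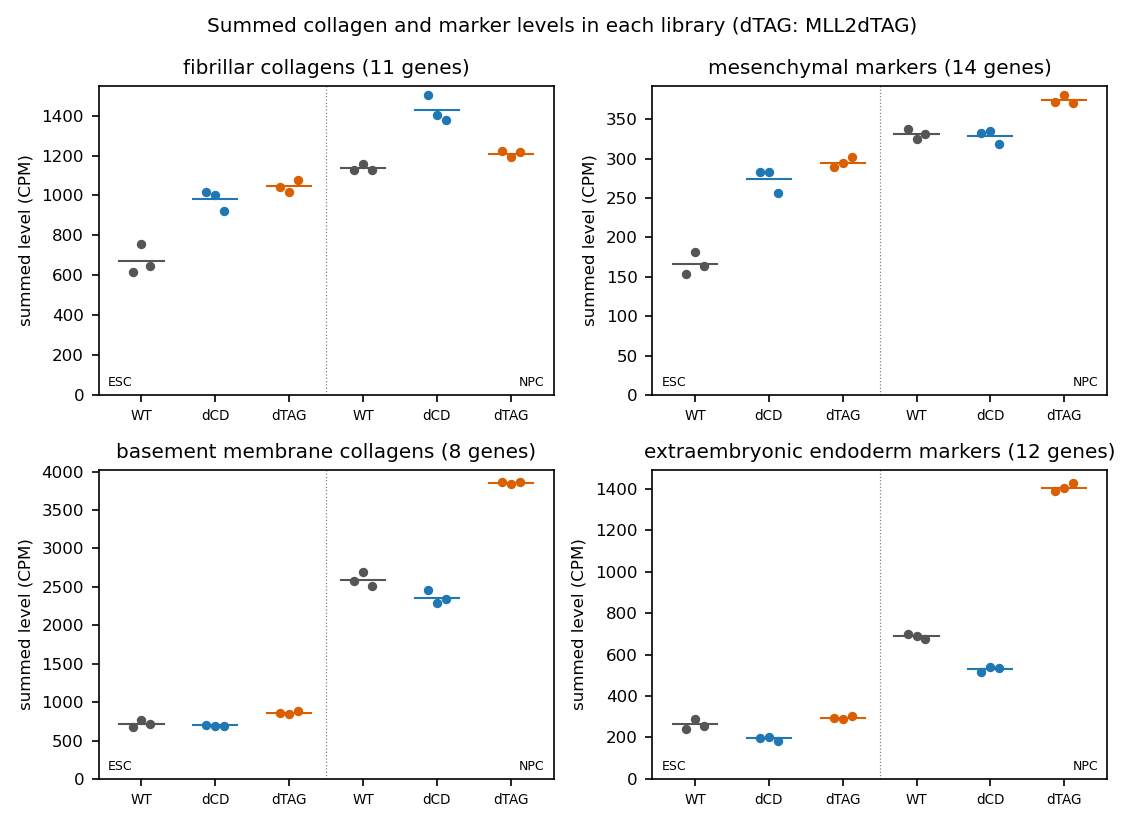
Summed CPM (vertical axes, from 0) in each library of fibrillar collagens, mesenchymal markers, basement membrane collagens and extraembryonic endoderm markers, with a line at each group mean. Both sums in the upper row are higher in the edited ESC lines than in ESC WT, and both in the lower row are highest in NPC MLL2dTAG.

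In NPC the fibrillar genes of the 2 lines parted. Col1a2 was at 151, 154 and 154 CPM in WT and 186, 172 and 175 in dCD, but at 21.2, 19.7 and 23.1 CPM in MLL2dTAG (7.20-fold lower; log2 change −2.85, SE 0.06; edgeR quasi-likelihood, Benjamini-Hochberg adjusted p 5.1e-30). The MLL2dTAG libraries lay far below all others. Its partner Col1a1 was at 149.7, 164 and 154 CPM in WT, 219.8, 183 and 184 in dCD and 100.1, 96.2 and 103 in MLL2dTAG, 1.56-fold lower in the last. Col3a1, in contrast, was highest in MLL2dTAG, at 305, 296 and 285 CPM in WT, 446, 421 and 411 in dCD and 723, 710.4 and 713 in MLL2dTAG (2.42-fold higher in MLL2dTAG). Groups of these 3 genes did not overlap. Col11a1 fell from 244, 245 and 242 CPM in WT to 56.9, 52.8 and 56.9 in MLL2dTAG (log2 change −2.13, SE 0.05) and by less in dCD (−0.25). Col2a1 fell in both lines, from 81.9, 90.2 and 85.6 CPM in WT to 40.9, 37.0 and 35.8 in dCD and 39.8, 39.4 and 41.6 in MLL2dTAG. Col5a2 was instead highest in dCD, at 33.6, 32.7 and 34.8 CPM in WT, 159, 160.4 and 148 in dCD and 65.6, 63.9 and 64.2 in MLL2dTAG (4.62-fold higher in dCD; edgeR quasi-likelihood, Benjamini-Hochberg adjusted p 2.1e-28).

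Col5a1, the partner of Col5a2 in type V, was at 121, 129.5 and 125 CPM in WT, 204, 182 and 187 in dCD and 191, 185 and 191 in MLL2dTAG, with both lines above WT in every library. Col5a1 and Col5a3 rose in both NPC lines, at log2 changes of 0.61 and 0.96 in dCD and 0.59 and 0.79 in MLL2dTAG. Col24a1 fell in both (−0.995 and −1.42) and Col27a1 in MLL2dTAG (−1.10). Col27a1 was not called in dCD, and Col11a2 in neither line. Of the 11 fibrillar genes, 6 were higher and 3 lower in NPC dCD (against 26.7% and 26.8% of all genes), and 4 were higher and 6 lower in NPC MLL2dTAG (against 33.3% and 28.4%). The 3 lower in dCD and the 4 higher in MLL2dTAG are near those shares. Mesenchymal markers summed to 325 to 337 CPM in NPC WT, 318 to 335 in dCD and 371 to 381 in MLL2dTAG. Within that list Fbn1, a microfibril protein, was at 103 ± 3.47 CPM in WT and 20.2 ± 1.95 in MLL2dTAG, and Tcf21 at 22.9 ± 0.350 and 0.956 ± 0.268, while Pdgfra (62.8 ± 2.58 and 160.5 ± 2.61) and Postn (11.4 ± 0.635 and 43.8 ± 2.501) were higher. Their part in the fibrillar changes was not tested.

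**Figure D4:**
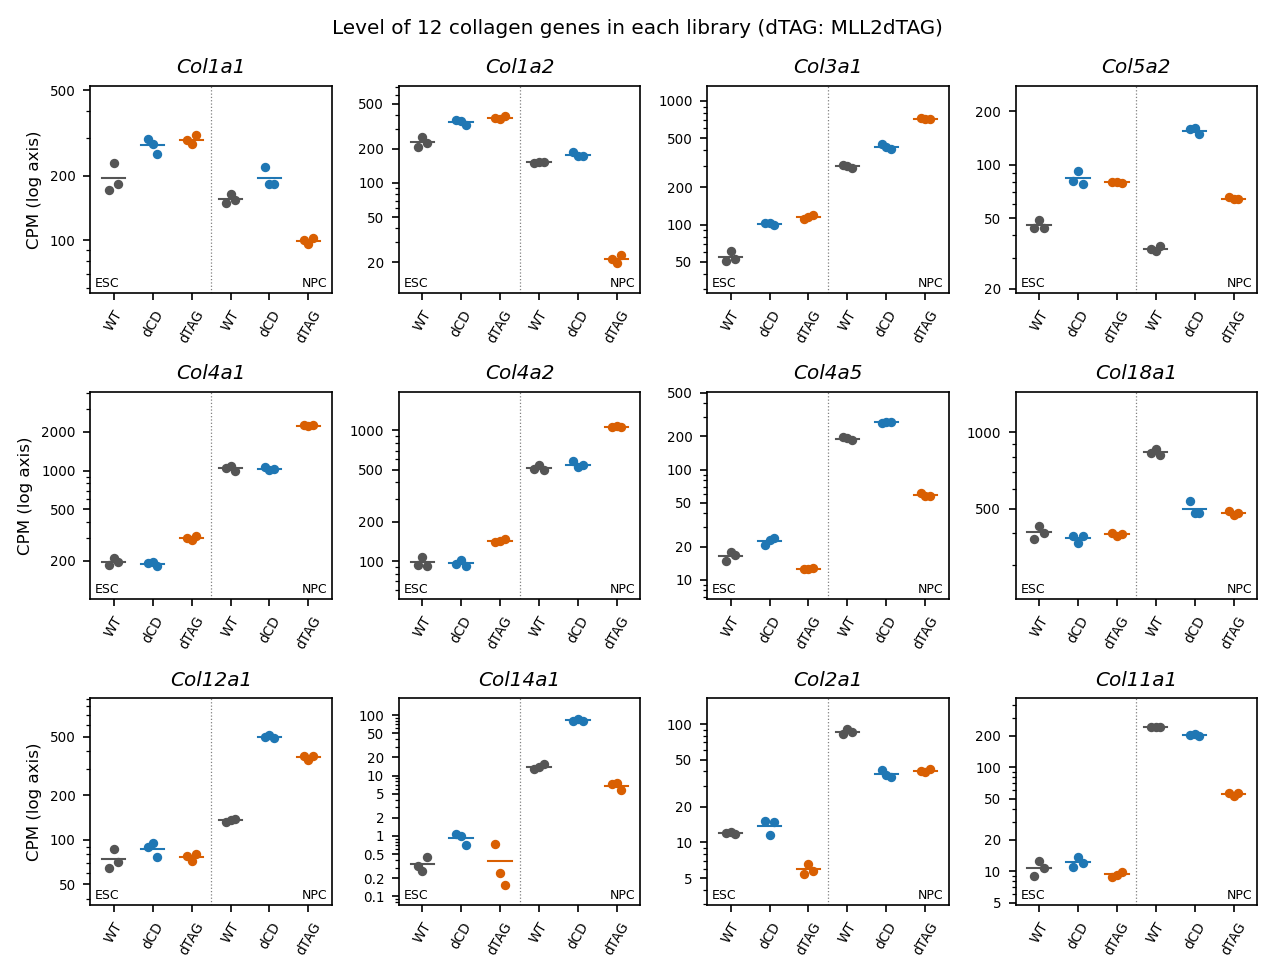
Level in CPM (log axes) of 12 collagen genes in each library, with a line at each group mean and a dotted line between ESC and NPC. Col1a2, Col4a5 and Col11a1 are low in NPC MLL2dTAG, where Col3a1, Col4a1 and Col4a2 are high, and Col5a2, Col12a1 and Col14a1 are highest in NPC dCD.

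The main type IV chains Col4a1 and Col4a2 rose in the MLL2dTAG line at both stages and were not called in the dCD line. In ESC, Col4a1 was at 184, 210.5 and 195 CPM in WT, 191, 195 and 182 in dCD and 303, 291 and 313 in MLL2dTAG (log2 change 0.62, SE 0.04). In NPC it was at 1043, 1085 and 993 CPM in WT, 1058, 1009 and 1036 in dCD and 2244, 2211 and 2247 in MLL2dTAG (2.15-fold higher in MLL2dTAG; edgeR quasi-likelihood, Benjamini-Hochberg adjusted p 6.1e-24). Col4a2 followed it, with log2 changes of 0.55 in ESC and 1.05 in NPC MLL2dTAG. WT and dCD libraries overlapped for Col4a1 at both stages and were not called different, whereas all MLL2dTAG libraries lay above them. For Col4a2 the dCD differences (−0.03 in ESC and 0.08 in NPC) were not called either, although 0.11 was called in ESC with GC and length offsets. In NPC 0.09 to 0.12 was called with no low-count filter, with only the compared groups in the fit, or without replicate 2 of either group. For both genes the MLL2dTAG change was larger in NPC than in ESC, by 0.48 and 0.50 on the log2 scale in the interaction test.

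The X-linked pair went the other way. Col4a5 was at 196, 192 and 185 CPM in NPC WT, 267, 271 and 271 in dCD and 60.7, 57.4 and 57.0 in MLL2dTAG, with log2 changes of 0.50 and −1.71 (SE 0.04 each) and no overlap. In ESC it was also higher in dCD (0.44) and lower in MLL2dTAG (−0.40). Col4a6, its neighbour, had 323 counts over the NPC WT group, 296 in dCD and 26 in MLL2dTAG, a log2 change of −3.74 in the last, or −4.94 without NPC MLL2dTAG replicate 1. Thus of the 6 type IV genes in NPC MLL2dTAG, 2 rose and 2 fell (against 33.3% and 28.4% of all genes). These counts are near those shares. All 4 changes were of 2-fold or more, a size that 19.6% of all genes passed. Col4a3 was not called in either line at either stage. Col4a4 fell in NPC dCD (−0.75), and its call in ESC MLL2dTAG (−1.53, 7 counts against 17) was lost without ESC WT replicate 2 (−1.60) or 3 (−1.13) or MLL2dTAG replicate 2 (−1.44) or 3 (−0.85), and was −2.76 without MLL2dTAG replicate 1.

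Col18a1 fell in both edited NPC lines, from 824, 860.4 and 816 CPM in WT to 536, 483 and 481 in dCD and 489.8, 475 and 481 in MLL2dTAG (log2 changes −0.74 and −0.79), and was not called in ESC. Its NPC libraries in both lines lay below every WT library. Col15a1 was not called against WT in any of the 4 comparisons.

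Extraembryonic endoderm markers moved with Col4a1 and Col4a2 in NPC MLL2dTAG. In NPC dCD they did not, since the marker sum was lower than in WT and neither gene was called. The 12 markers summed to 676 to 699.9 CPM in WT, 515 to 539 in dCD and 1388 to 1428 in MLL2dTAG. Gata4 was at 62.6 ± 0.663 CPM in NPC WT and 253 ± 3.76 in MLL2dTAG, Sox17 at 6.10 ± 0.440 and 12.9 ± 0.779, and Afp at 0.851 ± 0.155 and 4.80 ± 0.667. All 12 rose in NPC MLL2dTAG (against 33.3% of all genes), and Pdgfra stands in both this list and the mesenchymal one. In ESC the sums were 243 to 290.5 CPM in WT, 185 to 203 in dCD and 291 to 301 in MLL2dTAG, where 3 markers had means under 1 CPM. Endothelial markers, also of cells with type IV collagen, summed to 63.1 to 65.5 CPM in NPC WT and 218 to 224 in MLL2dTAG, most of it Kdr (59.5 ± 1.04 and 209 ± 3.53 CPM). Of the 7, 4 rose in MLL2dTAG (against 33.3% of all genes). They were Kdr, Cdh5 (0.925 ± 0.189 and 4.52 ± 0.303 CPM), Tek (1.24 ± 0.362 and 3.93 ± 0.390) and Pecam1 (1.28 ± 0.268 and 2.54 ± 0.171). Tie1, Erg and Emcn were under 1 CPM and not called. Pluripotency markers summed to 359 to 367 CPM in NPC MLL2dTAG. The part of these markers in the type IV difference was not tested.

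Ratios of chains within a library, taken per length, do not depend on the library's scale. Col4a1 stood at 1.958 ± 0.0823 times Col4a2 in ESC WT and 2.03 ± 0.0455 times in NPC MLL2dTAG (SD, n = 3), and its group means were 1.84 to 2.05 in all 6 groups. The ratio of Col1a1 to Col1a2 was 0.917 ± 0.0368 in NPC WT, 0.989 ± 0.0644 in dCD and 4.23 ± 0.197 in MLL2dTAG. The Col4a1 ratio held while its level ranged from 182 to 2247 CPM over single libraries, and that of type I moved. The ratio of Col4a1 to Col4a5 was 5.38 ± 0.184 in NPC WT, 3.79 ± 0.119 in dCD and 37.8 ± 1.22 in MLL2dTAG. Reads that cover both of 2 overlapping genes, as the annotated spans of Col4a1 and Col4a2 do, could be split only by strand, and the sources used here do not give the counting strand. The starts of these 2 genes in the promoter windows lie 21 bases apart, beside transcripts of 6.615 and 6.45 kb. The effect of such reads on the ratio was not tested.

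**Figure D5:**
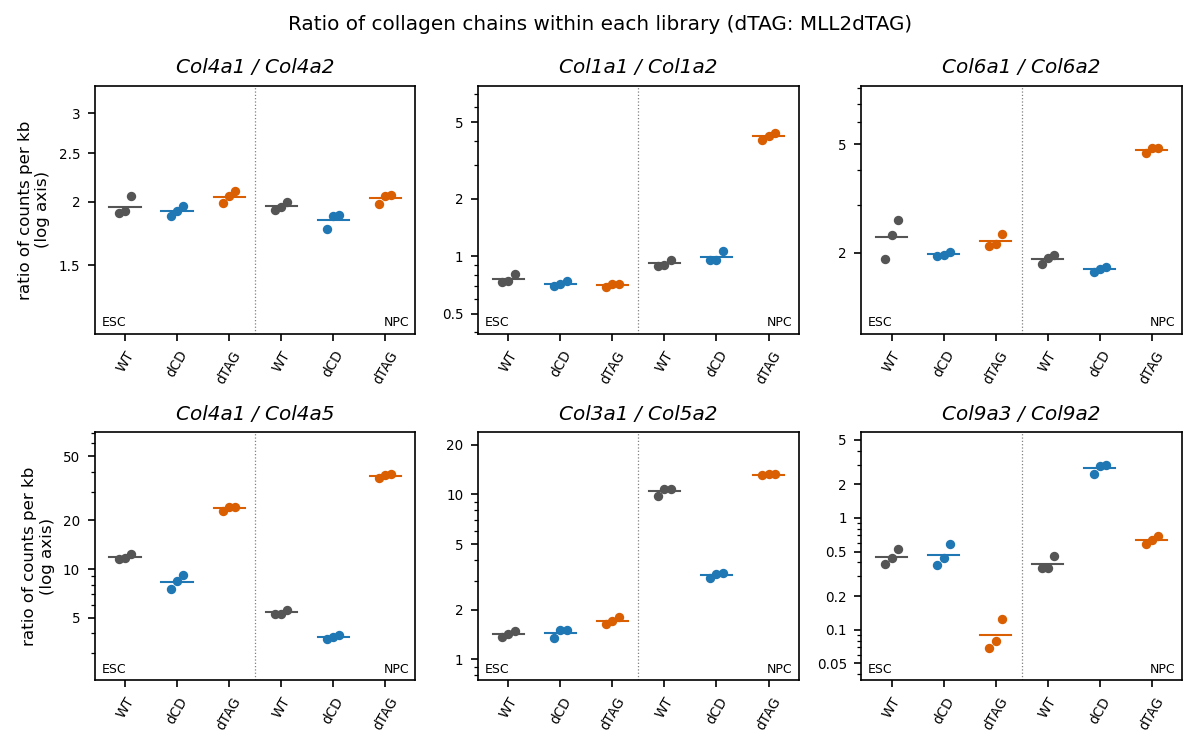
Ratio of counts per kb for 6 pairs of collagen chains (log axes), with the 3 libraries of each group sorted from low to high and a line at their mean. Col4a1 to Col4a2 stays near 2 in all groups, while Col1a1 to Col1a2, Col6a1 to Col6a2 and Col4a1 to Col4a5 are highest in NPC MLL2dTAG, and Col9a3 to Col9a2 in NPC dCD.

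Type VI collagen forms beaded microfibrils near basement membranes. Its main chains rose in both edited ESC lines: Col6a1 was at 56.4, 57.6 and 54.6 CPM in WT, 75.9, 79.98 and 69.5 in dCD and 90.0, 85.8 and 91.6 in MLL2dTAG, and Col6a3 at 39.2, 54.5 and 41.2 CPM in WT, 73.6, 77.7 and 73.4 in dCD and 81.3, 80.5 and 85.8 in MLL2dTAG. Col6a2 rose by 0.58 and 0.68 on the log2 scale. No edited library of these 3 genes overlapped WT. In NPC the directions differed. In dCD, Col6a1 (−0.73) and Col6a2 (−0.61) fell. In MLL2dTAG, Col6a2 was at 17.1, 17.9 and 16.8 CPM against 42.2, 44.3 and 42.4 in WT (log2 change −1.31, SE 0.08) while Col6a1, its adjacent gene, was at 72.8, 73.2 and 71.6 CPM against 71.3, 71.0 and 73.2 in WT and was not called. The ratio of Col6a1 to Col6a2 per length was 1.90 ± 0.0716 in NPC WT and 4.77 ± 0.114 in NPC MLL2dTAG. Col6a3, already low in NPC, fell further in MLL2dTAG (−1.11).

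The alternative chains Col6a4, Col6a5 and Col6a6, which lie side by side, were scarce but rose together in NPC MLL2dTAG. Col6a6 was at 1.93, 3.01 and 2.09 CPM in NPC WT and 15.8, 13.7 and 13.96 in MLL2dTAG (6.11-fold higher), and fell in dCD (−0.97). Col6a5 had 11 counts over the NPC WT group and 213 in MLL2dTAG (4.07 on the log2 scale), and Col6a4 had 24 and 74 (1.45). In ESC they did not move together: in MLL2dTAG Col6a5 rose from 1.70, 2.45 and 1.29 to 8.65, 5.56 and 6.06 CPM, Col6a4 fell from 8.31, 8.03 and 8.06 to 1.28, 2.64 and 2.51 CPM, and Col6a6 was not called. Col6a4 also fell in ESC dCD (−0.88).

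Short-chain collagens Col8a1 and Col10a1 were higher in both lines at both stages. Col8a1 was at 27.7, 34.1 and 28.1 CPM in ESC WT, 52.9, 51.8 and 46.0 in ESC dCD and 49.2, 46.6 and 45.8 in ESC MLL2dTAG. In NPC it was at 4.21, 3.41 and 3.58 CPM in WT, 15.4, 14.1 and 15.0 in dCD (3.99-fold higher) and 7.06, 5.03 and 6.84 in MLL2dTAG. Col10a1 rose 7.34-fold in NPC dCD and 7.39-fold in NPC MLL2dTAG, from 0.696, 0.852 and 0.922 CPM in WT to 5.06, 6.76 and 6.45 in dCD and 7.24, 5.08 and 6.31 in MLL2dTAG, and by 1.07 and 0.79 on the log2 scale in ESC. No edited library overlapped WT for these genes. Col8a2 moved oppositely in NPC, from 28.2, 32.0 and 34.6 CPM in WT to 12.7, 11.3 and 11.5 in dCD and 19.4, 20.3 and 20.6 in MLL2dTAG. The 9 cartilage markers summed to 85.1 to 89.9 CPM in NPC WT, 98.1 to 102 in dCD and 105 to 109 in MLL2dTAG, and to 34.6 to 36.6 CPM in ESC WT, 20.9 to 23.7 in dCD and 14.7 to 16.8 in MLL2dTAG. In NPC 4 were higher and 1 lower in dCD (against 26.7% and 26.8% of all genes). In NPC MLL2dTAG 3 were higher and 3 lower (against 33.3% and 28.4%), which is near those shares. Most of the NPC sum was Sox6 and Sox9, transcription factors that other cells also use (44.6 ± 1.35 and 21.7 ± 1.22 CPM in WT), and Hapln1 (10.9 ± 0.456 CPM in WT), while the cartilage proteoglycan Acan was under 0.5 CPM in each NPC group. The part of these markers in the Col10a1 and Col8a1 differences was not tested.

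FACIT collagens stood highest in NPC dCD. Their summed level was 179, 184 and 187 CPM in NPC WT, 639, 659 and 621 in dCD and 402, 378 and 398 in MLL2dTAG, without overlap. Col12a1, which binds type I fibrils, made up most of it, at 133, 135 and 137 CPM in WT, 496, 514 and 488 in dCD and 370.3, 347 and 367 in MLL2dTAG (log2 changes 1.88 and 1.42; edgeR quasi-likelihood, Benjamini-Hochberg adjusted p 1.1e-23 in dCD). Col14a1, another fibril-binding FACIT, was at 12.8, 13.8 and 15.2 CPM in WT and 79.9, 87.3 and 79.6 in dCD (5.89-fold higher), but at 7.24, 7.40 and 5.84 in MLL2dTAG (−1.03). Both edited lines were therefore high in Col12a1 and opposite in Col14a1. Col9a3 of type IX was at 4.27, 3.70 and 3.97 CPM in NPC WT, 29.2, 26.9 and 23.1 in dCD (6.65-fold higher) and 3.65, 4.06 and 3.76 in MLL2dTAG, which was not called.

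Sums of neural progenitor, neuronal and neural crest markers were also higher in NPC dCD than in NPC WT, but not every marker rose. Over all genes, 26.7% were called higher and 26.8% lower in NPC dCD. The 9 neural progenitor markers summed to 572 to 596 CPM in NPC WT, 996 to 1088 in dCD and 575 to 587 in MLL2dTAG, with 6 higher and the other 3 not called in dCD. The largest part of this sum was Vim, at 331 ± 3.26 CPM in NPC WT and 599.8 ± 31.6 in dCD. The 7 neuronal markers summed to 273 to 278 CPM in NPC WT, 408 to 438 in dCD and 264 to 279.9 in MLL2dTAG, with 4 higher in dCD. Stmn2 went from 25.7 ± 0.0596 CPM in WT to 93.9 ± 5.01 in dCD. Dcx (81.4 and 77.3) and Neurog2 (4.31 and 3.18) had lower means in dCD. The 8 neural crest markers summed to 79.7 to 82.4, 142 to 145 and 122 to 126 CPM in the same order, with 3 higher and 1 lower in dCD. Most of that rise was Ets1 (30.8 ± 1.63 CPM in WT and 92.6 ± 2.59 in dCD). Foxd3 (1.02 and 1.07) and Ngfr (5.87 and 5.88) were nearly level, and Erbb3 had a lower mean (23.9 and 16.1). Their part in the differences of Col12a1, Col14a1, Col9a3 and the neuronal Col25a1 in NPC dCD was not tested.

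In ESC 3 FACIT genes were higher and 4 lower of 8 tested in dCD, and 1 higher and 4 lower in MLL2dTAG (against 25.7% and 22.6% of all genes in dCD and 28.7% and 28.2% in MLL2dTAG). Their summed level was 118 ± 13.3 CPM in WT, 119 ± 8.96 in dCD and 116 ± 3.37 in MLL2dTAG (SD, n = 3), with overlapping libraries. Col9a3 fell from 6.28, 8.36 and 6.87 CPM in WT to 3.67, 4.02 and 3.36 in dCD and 1.14, 1.89 and 0.862 in MLL2dTAG, and Col9a2 from 13.8, 15.3 and 16.9 to 8.07, 6.67 and 8.54 in dCD, while its MLL2dTAG value was not called. Their WT and dCD libraries did not overlap. Col20a1 fell in dCD, from 6.34, 6.999 and 5.00 to 3.29, 2.65 and 2.09 CPM (−1.20). Col22a1, a FACIT of tissue junctions, fell in MLL2dTAG, from 4.05, 4.31 and 3.57 to 1.17, 1.09 and 1.33 CPM (−1.72). Neither overlapped WT in these lines, and Col16a1 rose in MLL2dTAG (0.70). Col14a1 rose in dCD on 68 counts against 27. Calls of Col12a1 and Col16a1 in ESC dCD were lost without a single library (0.14 without WT replicate 1 or 0.16 without dCD replicate 2 for Col12a1, and 0.22 without WT replicate 2 or dCD replicate 3 for Col16a1). So was Col22a1 in ESC dCD, at −0.40 without WT replicate 2, −0.44 without dCD replicate 1 and −0.46 without dCD replicate 2. Col20a1 in ESC MLL2dTAG was lost too, at −0.32 without WT replicate 2 and −0.36 without MLL2dTAG replicate 2. In NPC, Col16a1 was at 10.3, 10.6 and 9.61 CPM in WT, 14.9, 13.0 and 12.4 in dCD (0.40) and 5.58, 6.49 and 6.08 in MLL2dTAG (−0.74), again without overlap. Col22a1 fell in both (−0.57 and −1.30), Col9a2 fell in MLL2dTAG (−0.77), and Col20a1 rose there (0.65). Col19a1 had 5 counts in ESC WT and 0 in both edited ESC lines, which is near the floor of 3 counts, so no fold is given. In NPC it had 4 counts in WT, 36 in dCD and 9 in MLL2dTAG.

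Among the transmembrane collagens, Col17a1 was nearly lost from ESC MLL2dTAG, at 4.37, 5.24 and 5.44 CPM in WT and 0.183, 0.310 and 0.261 in MLL2dTAG (19.5-fold lower; edgeR quasi-likelihood, Benjamini-Hochberg adjusted p 2.5e-14). In ESC dCD it was at 3.37, 2.86 and 3.06 CPM, between these groups and without overlap. The 7 surface epithelium markers moved with it, at 870.5 to 911 CPM in sum in ESC WT, 682 to 701 in dCD and 466 to 480.1 in MLL2dTAG, where 5 were lower (against 28.2% of all genes). Krt18 was at 37.6 ± 3.74 CPM in ESC WT and 5.495 ± 0.725 in MLL2dTAG, and Cdh1 at 592 ± 4.74 and 312 ± 4.11 CPM, while Krt5, Krt14 and Trp63 were under 1 CPM in each ESC group. Most of the ESC sums was Cdh1 and Epcam (240 ± 17.3 CPM in ESC WT and 144 ± 5.85 in ESC MLL2dTAG). These 2 genes were lower in NPC WT, at 79.1 ± 5.04 and 63.0 ± 0.788 CPM. The sum thus mainly follows 2 genes that were high in ESC. The part of the epithelial markers in the Col17a1 difference was not tested. Col25a1 and Col23a1 moved in opposite directions in the NPC lines. Col25a1 was at 16.6, 17.8 and 18.1 CPM in WT, 44.8, 45.4 and 40.7 in dCD and 12.3, 14.1 and 13.0 in MLL2dTAG, and Col23a1 at 7.82, 5.59 and 7.37 CPM in WT, 18.8, 19.0 and 17.3 in dCD and 2.31, 2.65 and 2.61 in MLL2dTAG. For both genes dCD was highest and MLL2dTAG lowest. Col13a1, a collagen of the neuromuscular junction, fell in ESC MLL2dTAG, from 6.12, 7.26 and 5.03 to 3.22, 3.91 and 3.45 CPM (−0.80), and in NPC dCD (−0.46). Calls that rested on single libraries were Col13a1 in NPC MLL2dTAG (0.32, and 0.20 to 0.29 without WT replicate 3 or MLL2dTAG replicate 1 or 2), Col17a1 in NPC MLL2dTAG (−0.82, and −0.48 without MLL2dTAG replicate 3, −0.73 and −0.64 without WT replicates 2 and 3), Col23a1 in ESC dCD (−0.69, and −0.58 without dCD replicate 3) and Col25a1 in ESC dCD. The last was lost without any 1 of 5 of its 6 libraries, dCD replicate 1 being the exception, at 0.59 to 0.80.

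Of the remaining genes, Col7a1, the anchoring fibril collagen, rose in NPC dCD from 7.09, 7.62 and 8.74 to 23.5, 18.9 and 20.6 CPM (log2 change 1.42, SE 0.10). Between WT stages it fell (−1.21, and −1.95 with GC and length offsets). Its calls in MLL2dTAG were lost in ESC without WT replicate 2 (−0.14) or MLL2dTAG replicate 2 (−0.24), and in NPC without WT replicate 2 (−0.28) or 3 (−0.17) or MLL2dTAG replicate 1 (−0.21) or 2 (−0.23). Col26a1 fell in both NPC lines, from 20.6, 23.8 and 22.2 CPM in WT to 5.40, 5.82 and 6.25 in dCD and 3.26, 3.86 and 2.87 in MLL2dTAG (log2 changes −1.93 and −2.73), with no overlap. Its fall in ESC dCD (−0.64) was not called without ESC WT replicate 2 (−0.41).

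Compared with each other, the 2 edited lines differed in 26 of 42 members in ESC (61.9%, against 47.2% of all genes) and in 32 in NPC (76.2%, against 55.9%). These contrasts take no mean from WT libraries, although WT libraries enter the shared fit. With only the compared groups in the fit, 28 members were called in ESC and 34 in NPC. In ESC 14 members were higher in dCD (against 23.7%) and 12 in MLL2dTAG (against 23.4%), and in NPC 21 (against 24.3%) and 11 (against 31.6%). The NPC shares over all genes depended on the scaling. Of all genes called there, 43.5% were higher in dCD with TMM factors, 54.8% with upper-quartile factors and 54.7% with library totals only. At 2-fold or more 9 were called in ESC and 19 in NPC, against 11.7% and 18.1%. In NPC, Col4a6 was 12.6-fold higher in dCD, on 296 against 26 counts (log2 3.65, and 4.85 without MLL2dTAG replicate 1). Among members with at least 5 CPM in a group, the next were Col14a1 (12.03-fold higher in dCD), Col1a2 (8.36-fold), Col23a1 (7.23-fold), Col9a3 (6.88-fold) and Col4a5 (4.62-fold). Members higher in MLL2dTAG included Col6a6 (11.97-fold), Col6a5 (10.2-fold), Col6a4 (2.68-fold), Col4a1 (2.16-fold), Col4a2 (1.95-fold) and Col3a1 (1.68-fold). Of the 8 tested FACIT genes, 7 were higher in NPC dCD (against 24.3% of all genes) and 1, Col20a1, in MLL2dTAG. The Col20a1 difference (−0.38) was not called without NPC dCD replicate 1 (−0.30) or 2 (−0.36) or MLL2dTAG replicate 1 (−0.30) or 3 (−0.32). In ESC the type I chains and Col5a2 differed between the lines by −0.09, −0.11 and 0.08 on the log2 scale, none of them called. Col1a2 was called at −0.15 to −0.09 with no low-count filter, with only the compared groups in the fit or without ESC dCD replicate 1, and Col1a1 at −0.13 with no low-count filter.

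Whether a line's change depended on the stage was tested as an interaction, the change against WT in NPC minus that in ESC. For dCD 25 members were called (59.5%, against 42.9% of all genes), 14 more positive in NPC and 11 more negative (against 20% and 22.9%). For MLL2dTAG 31 were called (73.8%, against 49%), 16 and 15 (against 26.4% and 22.6%). At 2-fold or more 17 and 23 members were called, against 11.1% and 17.3%. Type I showed the contrast most plainly: Col1a2 was higher in MLL2dTAG ESC and lower in MLL2dTAG NPC than in WT, an interaction of −3.56 (SE 0.08; edgeR quasi-likelihood, Benjamini-Hochberg adjusted p 1.2e-28), and Col1a1 gave −1.24. Col3a1, higher in MLL2dTAG at both stages, gave 0.22. That of Col3a1 was not called with library totals in place of scaling factors (0.13) or without a filter on low counts (0.12).

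Several members are adjacent in the genome. RefSeq places 15 of the 44 genes in 8 neighbouring pairs: Col9a1 with Col19a1, Col3a1 with Col5a2, Col4a4 with Col4a3, Col6a2 with Col6a1, Col4a1 with Col4a2, Col6a6 with Col6a5, Col6a5 with Col6a4, and Col4a6 with Col4a5. Neighbours did not always move alike. In NPC dCD, Col5a2 rose 4.62-fold and Col3a1 1.44-fold, and the ratio of Col3a1 to Col5a2 per length went from 10.4 ± 0.599 in WT to 3.26 ± 0.115. In NPC MLL2dTAG that ratio was 13.2 ± 0.0693. The annotated spans of Col4a4 and Col4a3 overlap, as do those of Col4a1 and Col4a2.

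Genes whose proteins modify, process, bind and degrade collagen were counted from 6 lists, with 72 genes in the table and 70 tested. In ESC, 27 were called higher and 20 lower in dCD (against 25.7% and 22.6% of all genes). In ESC MLL2dTAG, 39 were higher and 15 lower (against 28.7% and 28.2%). In NPC, 39 were higher and 14 lower in dCD (against 26.7% and 26.8%), and 43 higher and 17 lower in MLL2dTAG (against 33.3% and 28.4%). Between WT stages 45 were higher and 20 lower in NPC (against 39.1% and 40.4%). The share called lower was below that of all genes in each comparison except ESC dCD. The shares called were 67.1%, 77.1%, 75.7%, 85.7% and 92.9%, against 48.3%, 56.9%, 53.5%, 61.7% and 79.5% of all genes. Median log2 changes of the 70 genes were 0.13, 0.28, 0.26, 0.37 and 0.52.

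Hydroxylases and chaperones rose with differentiation, 14 of 19 being higher (against 39.1% of all genes). Serpinh1, the collagen chaperone HSP47, went from 112 ± 6.90 to 695 ± 10.02 CPM (6.23-fold). P4ha3, a prolyl hydroxylase subunit, rose 5.64-fold in NPC dCD and 4.99-fold in NPC MLL2dTAG, from 8.32 ± 0.920 CPM. The prolyl hydroxylases did not move as a set, since P4ha1 was lower in both lines at both stages, at log2 changes of −0.45 to −0.35. In NPC MLL2dTAG, P3h3 fell (−1.80), while Crtap (1.27) and P3h1 (0.83), which form a prolyl 3-hydroxylation complex, rose. In the ESC lines, Fkbp14, another chaperone, rose 2.33-fold in MLL2dTAG.

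Most export and processing genes rose in NPC dCD. Of the 12 tested, 10 were higher (against 26.7% of all genes) and the other 2, Sec23a (0.00) and Sec24d (0.01), were not called, with Bmp1, a procollagen C-proteinase, at 98.9 ± 4.80 CPM in WT and 237 ± 6.58 in dCD. Of the 5 crosslinking oxidases, 3 were higher and 2 lower in each NPC line (against 26.7% and 26.8% of all genes in dCD and 33.3% and 28.4% in MLL2dTAG). Lox, one of them, fell 27.99-fold from ESC WT to NPC WT and then stood 4.55-fold higher in NPC dCD and 2.65-fold higher in NPC MLL2dTAG, while Loxl1 and Loxl3 were lower in both NPC lines. The gelatinase Mmp2 was at 345 ± 6.88 CPM in NPC WT, 225 ± 8.001 in dCD and 109 ± 4.29 in MLL2dTAG, and Mmp16 fell 4.68-fold in MLL2dTAG. Among receptors, Adgrg6, which binds type IV collagen, rose 8.74-fold in NPC dCD and 5.10-fold in ESC MLL2dTAG, and Ddr2, a receptor of fibrillar collagen, rose 2.43-fold in ESC MLL2dTAG and 2.28-fold in NPC MLL2dTAG.

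Some basement membrane partners moved with Col4a1 and Col4a2 in MLL2dTAG. Lama1, the laminin chain of early basement membranes, was at 285 ± 12.3 CPM in NPC WT and 1149 ± 9.42 in MLL2dTAG (4.03-fold), and at 129 ± 13.1 and 285 ± 8.43 CPM in ESC. Nid1, which links laminin to type IV collagen, rose in both NPC lines, from 55.7 ± 1.40 CPM to 294 ± 2.97 in dCD and 159 ± 2.84 in MLL2dTAG, although Col4a1 and Col4a2 were not called in NPC dCD. Nid2 and Lama5 fell there (−0.55 and −0.54). Of the 17 partners, 9 were higher and 4 lower in NPC MLL2dTAG (against 33.3% and 28.4% of all genes), and 8 higher and 7 lower in NPC dCD (against 26.7% and 26.8%). The 4 lower in MLL2dTAG are a smaller share than over all genes.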

How the data were processed

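RNA was sequenced from poly(A) libraries made with a TruSeq Stranded mRNA kit, per the labels' protocols. The deposited values are raw read counts per gene, and HTSeq is named in the submitters' processing notes. The aligner, genome build and strand setting are not given in the sources used here. From 1 deposited table, 18 columns were used, and 6 with duplicated names and the 12 columns of another table, which match no label, were not.

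Tests were edgeR 4.0.16 quasi-likelihood fits (R 4.3.3, limma 3.58.1) over all 6 groups and 20511 genes kept by edgeR's low-count filter (minimum count 10), with TMM factors (0.967 to 1.05), 12 residual degrees of freedom and Benjamini-Hochberg adjustment over all genes tested. Genes were called at adjusted p under 0.05. A level of 3 counts per library, the limit that 0 counts allow, is 0.0652 to 0.154 CPM and covers counting error only. Lengths and GC content came from GENCODE vM21. The procedure was tested on simulated counts in which few genes changed, in a single group. Far more genes were called in these data, so that test does not check the scaling here.

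Members and lists were chosen with earlier results of these data known. Library values are given for members with a mean of at least 5 CPM in a group, and list genes are named for the 2 highest and 2 lowest called changes per comparison. Alternatives comprised other scaling, filters, DESeq2 1.42.0, halved counts, fewer groups, offsets for GC content and length, a replicate block and omission of each replicate.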

Additional observations from a re-analysis of the deposited data

Results flagged for a closer look

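The change of a line against WT differed between ESC and NPC for the following genes, by the interaction term of the edgeR quasi-likelihood fit (the log2 change in NPC minus that in ESC, Benjamini-Hochberg adjusted over all genes tested). They are the 3 highest and 3 lowest called values of each line among members with at least 5 CPM in a group. In dCD the interaction of Col9a3 was 3.71 (SE 0.20), from −0.98 in ESC to 2.73 in NPC. Col23a1 gave 2.10 (SE 0.25) and Col10a1 1.81 (SE 0.21), the latter being higher than WT at both stages. Lower in NPC than in ESC were the changes of Col8a2 (−1.40, SE 0.22), Col2a1 (−1.38, SE 0.11) and Col24a1 (−1.34, SE 0.36, or −2.02 without ESC WT replicate 2). In MLL2dTAG, Col17a1 gave 3.47 (SE 0.46), at −4.28 in ESC and −0.82 in NPC, where its own call rested on single libraries. Col6a4 gave 3.35 (SE 0.41), from −1.90 to 1.45, and Col6a6 3.26 (SE 0.34). The lowest were Col1a2 (−3.56, SE 0.08), Col26a1 (−2.50, SE 0.20) and Col6a2 (−1.99, SE 0.11), and of these Col1a2 and Col6a2 were above WT in ESC and below it in NPC.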

How the results depend on the processing

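Requiring a change of 2-fold or more left 3 of 24 called members in ESC dCD, 10 of 28 in ESC MLL2dTAG, 13 of 29 in NPC dCD and 21 of 35 in NPC MLL2dTAG, and 9 of 26 and 19 of 32 between the lines in ESC and NPC. Every other setting kept each count within 1.5 times. Omitting single replicates gave 21 to 24, 24 to 28, 29 to 30 and 32 to 36 called members against WT in that order, 39 between WT stages, 24 to 26 and 31 to 33 between the lines, and 23 to 27 and 28 to 30 for the interactions of dCD and MLL2dTAG. GC and length offsets reversed 5 values: Col4a2 in ESC dCD (0.11), Col5a1 between WT stages (−0.22), Col18a1 between the lines in ESC (0.15) and in NPC (−0.0712), and Col5a1 between the lines in NPC (−0.0848); the cause was not tested. Over 378 gene changes and their alternatives, 6302 of 6510 values kept direction and side of the threshold, 122 lost the call and 81 gained it.

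Replicate numbers did not pair the libraries, since deviations of same-numbered libraries correlated at −0.0168 to 0.0258 in ESC and −0.0278 to 0.0195 in NPC. With a replicate block the counts were 23, 26, 29 and 35 against WT, 39 between stages, 27 and 32 between the lines, and 25 and 30 for the interactions. Without NPC MLL2dTAG replicate 1 the log2 difference of Col4a6 between the lines in NPC was 4.85 rather than 3.65 and its interaction −4.38 rather than −3.18. Without ESC WT replicate 2 the Col24a1 interaction of MLL2dTAG was −2.64 rather than −1.959, and without ESC MLL2dTAG replicate 1 the Col14a1 difference between the lines in ESC was 2.18 rather than 1.38. Depth limits Col19a1, Col9a1 and Col28a1, which had at most 36 counts in a group.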
